A study of Mus musculus with 18 samples.

Results

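The genes described here encode the proteins of the cytosolic ribosome. They are every row of the expression table named Rps, Rpl or Rplp followed by a number and at most 1 of the letters a, x, y and l, a rule that uses the symbol and no measured value. The rule found 80 of the 28442 genes in the table, 31 of the small (40S) subunit and 49 of the large (60S) subunit. It leaves out ribosomal proteins with other names, such as Rpsa, Rps3a1 and Fau, which are given further on.

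RNA was sequenced from 6 non-tumoral livers and 12 advanced tumors of Alb-R26Met mice, 18 samples in all. In these mice, Cre recombinase under the albumin promoter removes a stop cassette in front of a mouse-human chimeric Met transgene at the Rosa26 locus. This slightly raises the level of the wild-type receptor tyrosine kinase in hepatocytes. Livers and tumors carried the same transgene, and the livers were taken from mice in which no tumor had formed. No liver without the transgene was compared here. The mice were males, first-generation offspring of R26stopMet mice on a C57BL/6JRj background and Alb-Cre mice on 129S2/SvPasOrlRj, aged 52 to 71 weeks for livers and 49 to 72 weeks for tumors. By the sample labels, tumors 11 and 12 came from 1 mouse, and each other sample came from a mouse of its own. The mouse numbers of tumors 3 and 10 differ between these labels and the paper's sample list. These 2 tumors were matched to that list by tissue name and tag. Every sample name also carries one of 2 tags, E19 (2 livers and 7 tumors) or E20 (4 livers and 5 tumors), whose meaning is not given in the sources used here.

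Each cytosolic ribosome holds 1 copy of almost every one of these proteins, built around ribosomal RNA, and the small subunit reads the messenger while the large subunit forms the peptide bond. Their messengers are among the most abundant of any cell, are short, and typically begin with a cytosine followed by a run of pyrimidines, the 5′ terminal oligopyrimidine (TOP) tract, through which mTOR and Larp1 control their translation. Ribosome synthesis is a classical target of Myc, and surplus Rpl5 and Rpl11 bind Mdm2, which links ribosome assembly to p53.

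The starts of 6 genes are shown because the first 2 carry a typical tract at the annotated start and the other 4 are those whose share of the ribosomal protein messengers is described below as differing between the name tags. Each sequence runs from 40 bases before the annotated start to 20 bases from it, 5′ to 3′ on the coding strand, from RefSeq on GRCm38.p6, and capitals mark a C followed by at least 4 bases that are each C or T and that starts within 10 bases of the annotated start.
Rps6: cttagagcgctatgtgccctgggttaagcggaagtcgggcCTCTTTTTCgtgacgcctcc
Rpl15: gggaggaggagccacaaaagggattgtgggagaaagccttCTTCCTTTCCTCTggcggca
Rpl38: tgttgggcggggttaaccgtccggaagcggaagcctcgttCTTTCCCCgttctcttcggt
Rpl31: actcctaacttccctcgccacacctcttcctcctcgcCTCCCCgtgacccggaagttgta
Rps13: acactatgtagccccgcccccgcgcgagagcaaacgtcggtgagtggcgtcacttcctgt
Rpl34: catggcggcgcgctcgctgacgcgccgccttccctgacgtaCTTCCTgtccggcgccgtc

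These windows lie at chr4:86857348-86857407 (minus strand) for Rps6, chr14:18270967-18271026 (minus) for Rpl15, chr11:114668540-114668599 (plus) for Rpl38, chr1:39367811-39367870 (plus) for Rpl31, chr7:116334171-116334230 (minus) for Rps13 and chr3:130730379-130730438 (minus) for Rpl34. The tract starts exactly at the annotated start in Rps6, Rpl15 and Rpl38 and 1 base after it in Rpl34. In Rps13 none starts within 10 bases of the annotated start, although runs of pyrimidines lie farther from it in the stretch shown. Of the 59 ribosomal protein genes with a sequence in the table, 38 (64.4%) had such a tract, against 34.4% of all 27025 genes with a sequence and 37.2% of the 8873 that passed the filter on low values described below and are no ribosomal protein gene of this family. At the annotated start itself the tract stood in 13 of 59 (22.0%), against 3.01% and 2.89%. The letters CCGGAAG, searched on both strands of the 300 bases around the start, were found in 24 of 59 genes (40.7%) against 9.93% of all genes and 20.6% of the other genes that passed the filter, and they can be read in the Rpl38 and Rpl31 windows above. The letters TATAAA stood within 40 bases before the start in 0 of 59, against 2.78% and 1.92%. These are matches of letters and were not tested as binding sites.

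The values are read here as TPM, a share of all transcripts in which a gene's reads are divided by its transcript length. The deposited values are whole numbers labelled as counts. The paper describes TPM normalization, and the total of every sample lay between 835144 and 907513. They were divided here by 1 scaling factor for each sample, a trimmed mean of log ratios to a reference sample that sets the bulk of genes level, and are called scaled TPM. Of the 80 genes, 77 passed the filter of a scaled TPM of at least 1 in at least 6 samples, and Rpl3l, Rpl10l and Rpl39l were listed at 0 in every sample. These 3 are paralogs known from muscle and testis. Differences are on the log2(scaled TPM + 1) scale, tested with limma, and p-values were adjusted by Benjamini-Hochberg over all 11452 genes that passed the filter. The reads behind a value are unknown.

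The row named Siglece took 17.9 to 29.5% of the summed TPM in livers and 21.5 to 53.4% in tumors other than tumor 2, where it took 82.9%. Tumor 2 also had the fewest genes above 0, 8718, against 11508 to 13819 in the other samples. Its scaling factor was 0.190, against 0.812 in tumor 11 to 1.42 in tumor 8, so its low rows are coarse after scaling. Without tumor 2, E20 samples had 12584 to 13819 genes above 0 and E19 samples 11508 to 12394. The summed levels of 7 hepatocyte markers, Alb among them, ranged from 41204 to 54781 scaled TPM in livers and from 47515 to 94519 in tumors.

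The ribosomal protein messengers filled 1.44 to 3.78% of the deposited total in livers and 1.77 to 3.03% in tumors other than tumor 2, where they filled 0.154%. Summed over the 80 genes, livers 1 to 6 had 23604, 11308, 14106, 16018, 21314 and 15259 scaled TPM. Tumors ranged from 6857 in tumor 2 to 23515 in tumor 10, with a median of 17914. The mean was 16935 ± 4625 (SD, n = 6) in livers and 17388 ± 4670 (SD, n = 12) in tumors, so the groups differed by far less than the spread within either. Liver 1 lay at the top of the livers and tumor 2 at the bottom of all samples. Without them, a choice made on these same values, the means were 15601 ± 3661 (SD, n = 5) and 18345 ± 3449 (SD, n = 11).

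**Figure D1:**
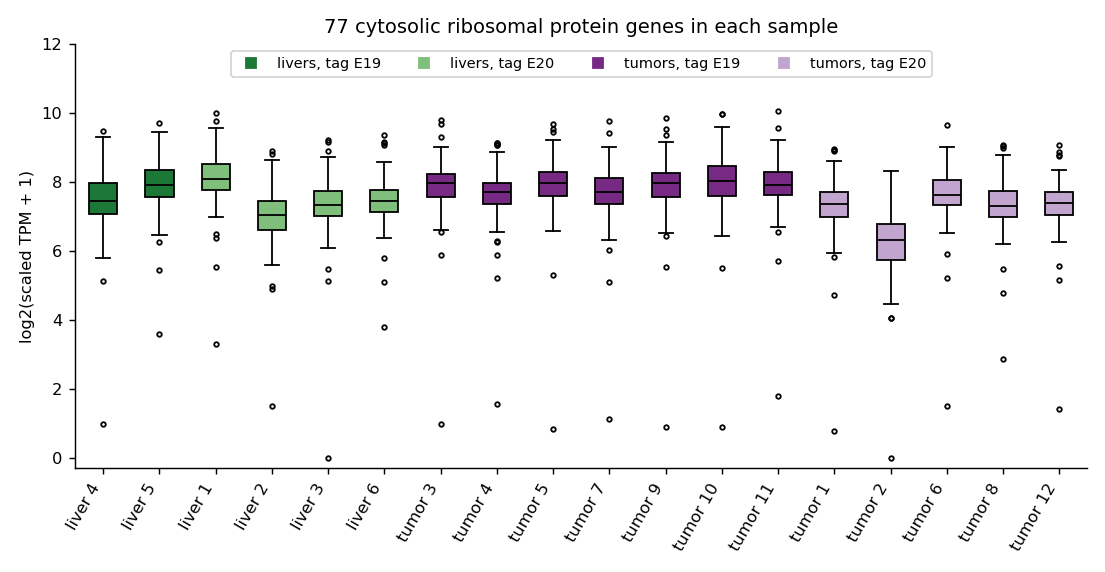
Each box shows the log2(scaled TPM + 1) values of the 77 tested ribosomal protein genes in 1 sample (line, median; box, quartiles; whiskers, 1.5 times the box; points, genes beyond), colored by group and name tag. The median ranged from 6.32 in tumor 2 to 8.08 in liver 1, and livers and tumors overlapped.

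The genes varied together from sample to sample. Across the 18 samples the median ribosomal protein gene had an SD of 0.49 on the log2 scale, close to the 0.49 of the median gene tested. After the median ribosomal protein gene of each sample was subtracted, the SD fell to 0.22, and it was smaller than before for 76 of the 77 genes. Rpl6 kept closest to the family, with a remaining SD of 0.10, followed by Rpl7 with 0.11 and Rpl17 and Rps6 with 0.12 each. The widest were Rps4l with 1.09, and Rplp0 and Rps27 with 0.45 each. Rplp0, a stalk protein whose messenger is often used as a reference in PCR, lay 0.18 to 0.92 log2 units above the family median in 16 samples, but 1.78 above it in tumor 2 and 1.57 in tumor 10. Rps27 lay 1.55 below the family median in tumor 2 and between -0.07 and 0.47 elsewhere.

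By mean scaled TPM the family spanned from Rps4l with 3.07, Rpl22 with 37.0, Rpl34 with 65.2, Rpl36a with 87.4 and Rps27l with 99.3 up to Rpl4 with 409, Rps2 with 527, Rps29 with 574, Rplp1 with 584 and Rpl41 with 697. Excluding Rps4l, the most abundant messenger stood 18.8-fold above the least abundant. Rpl22 ranged from 29.1 to 45.8 in livers and from 15.8 to 57.6 in tumors. Its paralog Rpl22l1, which the symbol rule leaves out, had medians of 28.0 in livers and 25.4 in tumors.

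The first question of the design was whether the tumors differed from the non-tumoral livers. Of the 77 genes tested, 0 passed an adjusted p of 0.05 in limma and 0 had an unadjusted p under 0.05. Over all genes the same test called 19.1%, with 9.52% higher and 9.61% lower in tumors. The median difference, tumor minus liver, was 0.01 over the ribosomal protein genes and -0.08 over all genes tested, and 41 of the 77 were positive. No gene of the 77 was free of overlap between the groups, against 2.17% of all genes tested that lay wholly higher and 1.07% wholly lower in tumors. The 95% intervals had a median half-width of 0.51 and, leaving out Rps4l, reached from -1.01 to 0.99. Shifts within the interval of a gene were not excluded by these samples. In bulk tissue, fewer cells of a type and less RNA per cell cannot be told apart.

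**Figure D2:**
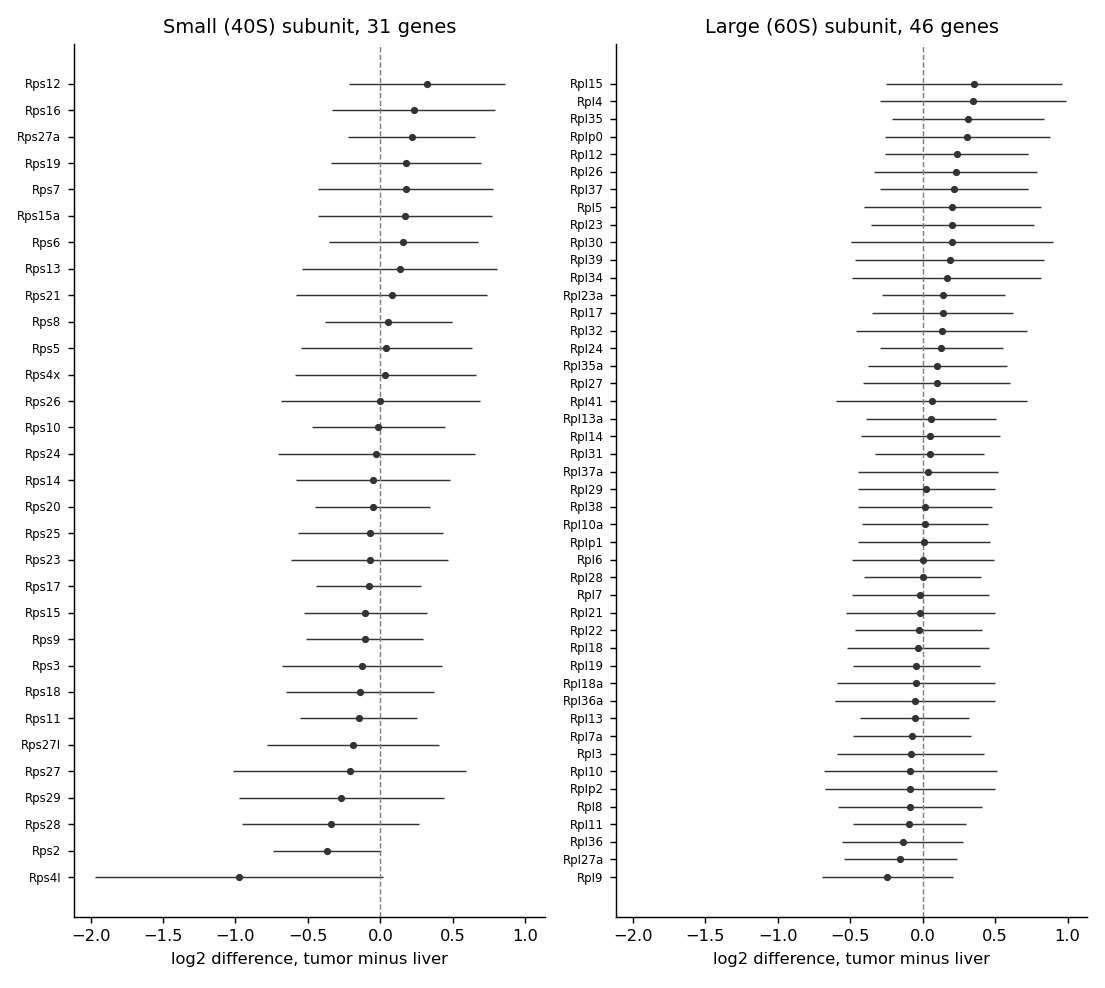
Points are log2 differences, tumor minus liver, for the 31 genes of the small subunit (left) and the 46 tested genes of the large subunit (right), with 95% confidence intervals from limma, ordered by size. They run from -0.98 for Rps4l to 0.36 for Rpl15, and 0 of 77 passed the adjusted threshold.

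Among the small-subunit genes the median difference was -0.05. Rps6, the protein that S6 kinase phosphorylates downstream of mTOR, ranged from 175 through a median of 219 to 366 scaled TPM in livers and from 99.8 through 286 to 378 in tumors. The 2 ranges overlapped almost wholly, with a difference of 0.16 (SE 0.25, adjusted p = 0.715). Rps2, which sits at the entry of the messenger channel, ranged from 477 through 616 to 840 in livers and from 320 through 490 to 595 in tumors. Its difference of -0.37 (SE 0.18) had the lowest adjusted p of the family, 0.166. Rps28, near the messenger exit, differed by -0.34 (SE 0.29), the zinc-binding Rps29 and Rps27 by -0.27 (SE 0.34) and -0.21 (SE 0.39), and the p53-inducible paralog Rps27l by -0.19 (SE 0.28). In the other direction, Rps12, in the beak of the small subunit, ranged from 81.6 through 101 to 249 in livers and up to 277 in tumors with a median of 139, a difference of 0.32 (SE 0.26). Rps16, whose tail reaches the transfer RNA in the peptidyl site, differed by 0.23 (SE 0.27). None of these differences passed the test.

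Among the large-subunit genes the median difference was 0.03. Rpl15 had the highest value of the family, 0.36 (SE 0.29, adjusted p = 0.447). It ranged from 92.0 through 149 to 248 in livers and from 57.8 through 218 to 303 in tumors. Rpl4, with a loop that reaches into the peptide exit tunnel, ranged from 194 through 331 to 447 in livers and from 110 through 492 to 752 in tumors, a difference of 0.35 (SE 0.31). The values were 0.31 for Rpl35, at the exit tunnel, 0.23 for Rpl12, at the base of the stalk, and 0.23 for Rpl26. At the other end, Rpl9 differed by -0.25 (SE 0.22) and Rpl27a by -0.15 (SE 0.19).

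The stalk proteins Rplp0, Rplp1 and Rplp2, which recruit the elongation factors, had a median difference of 0.01. Rplp0 ranged from 171 through 227 to 428 in livers and from 212 through 278 to 766 in tumors (0.31, SE 0.27). Rpl5, which with Rpl11 and 5S RNA forms the particle that binds Mdm2, ranged from 76.0 through 107 to 192 in livers and from 36.8 through 158 to 198 in tumors (0.20, SE 0.29), and Rpl11 differed by -0.09 (SE 0.19). The 19 genes listed as mutated in Diamond-Blackfan anemia, an inherited red cell aplasia, had a median of 0.05 and 0 calls. The 4 X-linked genes had a median of -0.01 and 0 calls.

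The 2 odd samples and the name tags bear on this result. Without both liver 1 and tumor 2, the median difference was 0.25 and 4 of 77 genes were called higher, against 15.8% of all genes. They were Rps12 (0.66), Rpl15 (0.65), Rpl4 (0.62) and Rps27a (0.44). Liver 1 had the highest family level of the livers and tumor 2 the lowest of the tumors. Leaving both out was therefore bound to raise the family difference. With sample quality weights, which gave tumor 2 the lowest weight, 11 of 77 were called higher, against 18.5% of all genes. Within the E19 samples alone, tumors were above livers for 59 of 77 genes, with a median of 0.15. Within the E20 samples alone this held for 2 of 77, with a median of -0.29. Neither called any of the 77, with 5 and 0 under an unadjusted p of 0.05, and the test of the difference between the tags called 0 of 77 and 0 of 11452 genes at the adjusted threshold, with 0 of 77 under an unadjusted p of 0.05. With the tag as covariate, Rps2 was called lower (-0.49, adjusted p = 0.0145), where 11.7% of all genes were.

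Markers of other cell types differed between the groups. For bile duct cells the summed markers ranged from 9.41 to 19.2 scaled TPM in livers and from 58.2 to 895 in tumors, without overlap, with 1 of the 2 tested called higher, Spp1. Summed markers ranged from 42.8 to 71.9 scaled TPM in livers and 32.2 to 134 in tumors for fibroblasts and stellate cells, with 3 of 6 called higher and 1 lower. They ranged from 13.3 to 33.4 and 20.5 to 57.8 for endothelial cells, with 2 of 6 higher. The top of 57.8 was tumor 2, whose low values scaling enlarges, and the highest E19 sample had 49.8. They ranged from 42.2 to 124 and 9.86 to 92.3 for Kupffer cells and macrophages, with 1 of 6 lower, and from 0 to 2.82 and 5.92 to 28.6 for dividing cells, with 4 of the 4 tested higher. For red blood cells they ranged from 3.69 to 64.1 and 5.25 to 26.7, with 1 of the 3 tested lower. None of the T or B lymphocyte markers passed the filter. Their part in the ribosomal protein values was not tested.

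The larger contrast lay between the name tags. With the group as covariate, 38 of 77 genes were lower in E20 than in E19 samples and 0 were higher, while 6.37% of all genes were called lower and 14.1% higher. The median difference, E20 minus E19, was -0.55. Only Rps4l had a positive value, 0.07. The called genes ran from -0.50 for Rps2 and Rpl22 to -0.90 for Rps13, and 15 of 31 small-subunit and 23 of 46 large-subunit genes were among them.

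Rps13, which binds early in small-subunit assembly, had 129, 36.8, 136, 129 and 114 scaled TPM in the E20 tumors 1, 2, 6, 8 and 12, and 174 to 254 in the 7 E19 tumors. No E20 tumor reached the lowest E19 tumor, and the difference over all 18 samples was -0.90 (SE 0.25, adjusted p = 0.0146). In livers the groups overlapped, with 134 and 235 in E19 livers 4 and 5 and 196, 76.0, 115 and 140 in E20 livers 1, 2, 3 and 6. Rps16 had the lowest adjusted p, 0.00337, with a difference of -0.84 (SE 0.18). It had 245, 147, 282, 228 and 229 in the E20 tumors and at least 352 in the E19 tumors, again with no overlap. Rpl39 (-0.90, SE 0.23), which lines the exit tunnel, Rps26 (-0.88, SE 0.26), Rpl34 (-0.87, SE 0.24) and the X-linked Rps4x (-0.86, SE 0.22) followed. Rpl5 differed by -0.82 (SE 0.22), Rps6 by -0.60 (SE 0.20) and Rplp0 by -0.65 (SE 0.22), all called. At the other end, Rpl38 differed by -0.13 (SE 0.22), Rps12 by -0.14 (SE 0.25), Rpl31 by -0.21 (SE 0.17) and Rpl27a by -0.26 (SE 0.17), and none of these 4 was called.

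Within tumors alone 27 of 77 genes were called lower in E20 (median -0.68), against 3.22% of all genes, and 27 of 77 lay in E20 tumors wholly below the E19 tumors, against 3.25% of all genes. Within the 6 livers alone 0 were called, against 0.0873% of all genes, 0 were under an unadjusted p of 0.05, and the median was -0.27. Liver 1, tagged E20, had the highest family level of all 18 samples. Only Rps2 was wholly lower in E20 livers, against 8.79% of all genes. Without liver 1, 35 of 77 were, against 17.6%, with 3 E20 and 2 E19 livers left. Leaving out an E20 liver can only raise this count, and liver 1 was picked for its high family level. Without tumor 2 the count of genes called lower over all samples was 29 of 77 (median -0.39), against 5.59% of all genes, and with each of the 18 samples left out in turn it ran from 17 (without liver 5) to 49 (without liver 1). The count also depended on the scale. Scaled by the median of gene ratios, 43 of 77 were called lower (median -0.59), against 1044 of 11452 genes. With the total without Siglece as the scale 1 of 77 was called lower (Rps16, median -0.47), against 0.722% of all genes, and with the deposited values unscaled 0 were called with 1 under an unadjusted p of 0.05 (median -0.63), against 0.0301%.

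The difference between the tags followed transcript length over the whole table. From the shortest to the longest eighth of 10427 genes with a principal transcript in GENCODE, the median difference rose from -0.38 to 0.33, and Spearman's rho between length and difference was 0.48 across genes, which are not independent and share the same 18 libraries. For tumor minus liver the same rho was 0.01. The ribosomal protein transcripts are short, with a median of 779 nucleotides against 2883 for all genes. Among the shortest eighth of transcripts, up to 1311 nucleotides, the 66 ribosomal protein genes had a median of -0.54 with 29 called lower, and the 1238 other genes a median of -0.37 with 235 called lower. Within the family rho was -0.19 over 76 genes. The part of transcript length in the tag difference of the ribosomal protein genes was not tested.

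**Figure D3:**
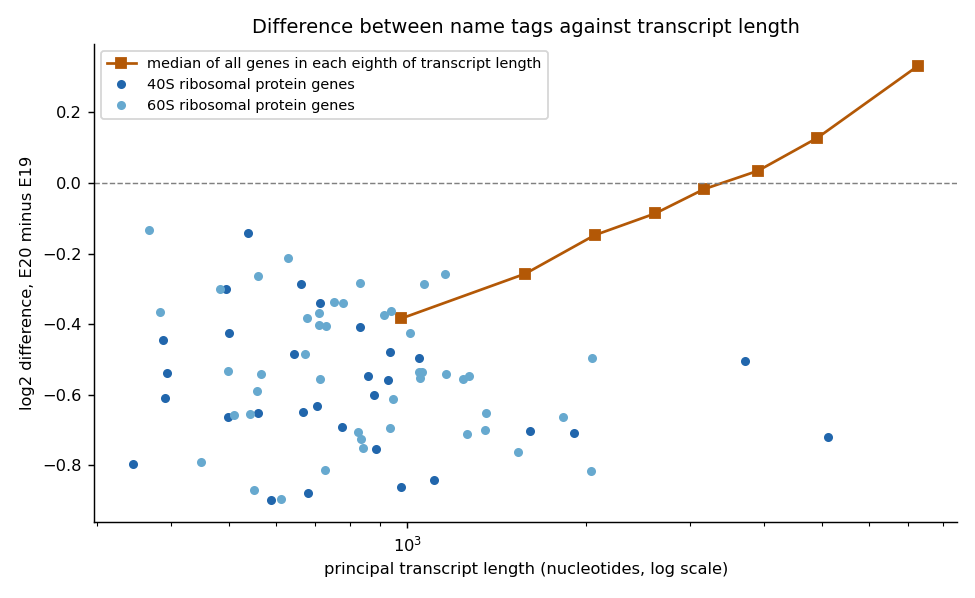
Log2 difference, E20 minus E19, against principal transcript length on a log axis, for 76 ribosomal protein genes (points, by subunit) and as the median of all genes in each eighth of length (squares, joined). The medians climb from -0.38 to 0.33 with length, and the 76 points lie between -0.90 and -0.13.

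To see whether the proportions among the genes changed, each sample was also centred on its median ribosomal protein gene. Between tumors and livers 0 of 77 genes were then called, with 5 under an unadjusted p of 0.05, where 11.3% of all genes were called. The largest of these values were -1.04 for Rps4l, -0.43 for Rps2 and -0.41 for Rps28. Between the tags 2 of 77 genes were called higher and 2 lower in E20 relative to the family, against 39.8% and 0.0873% of all genes. Rpl38, which is known for transcript-specific translation in the embryo, was higher by 0.41 (SE 0.15, adjusted p = 0.0392), and Rpl31, at the rim of the exit tunnel, by 0.33 (SE 0.12, adjusted p = 0.0357). Rps13 was lower by -0.36 (SE 0.14, adjusted p = 0.0473) and Rpl34 by -0.33 (SE 0.13, adjusted p = 0.0499). The unadjusted limma p-values of Rps13 and Rpl34 were 0.0185 and 0.0199, and 11 of 77 genes had one under 0.05. Centring removed the family's own shift and left 39.8% of all genes called higher, which made the adjustment over all genes mild. The 4 calls depend on that. Relative to the family Rpl31 lay at 0.37, 0.34, 0.16, 0.13 and 0.16 in the E20 tumors and between -0.29 and 0.07 in the E19 tumors, without overlap. Rpl38 overlapped, at 0.17, 0.48, 0.70, 0.43 and 0.39 against -0.29 to 0.66. For Rps13 the highest E20 tumor, at -0.277, lay just below the lowest E19 tumor, at -0.276. Rpl34 overlapped, at -1.54, -2.25, -1.71, -1.82 and -1.83 against -1.71 to -1.36. Tumor 2 was the lowest tumor for both, at -1.08 and -2.25, from deposited values of 7 and 3 TPM. The pseudogene row of Rpl34, described below, was not added here. Of the 4, Rpl38, Rpl31 and Rpl34 have a pyrimidine tract that starts within 10 bases of the annotated start.

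**Figure D4:**
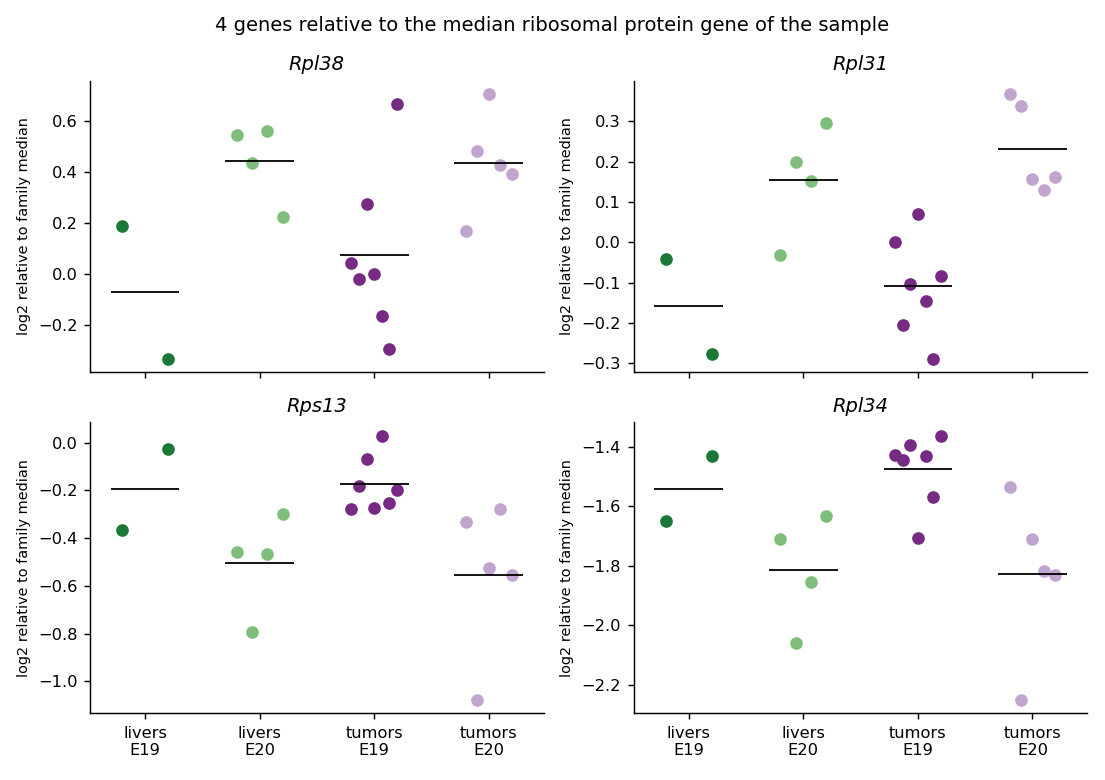
Log2 value of Rpl38, Rpl31, Rps13 and Rpl34 relative to the median ribosomal protein gene of the same sample, by group and name tag (points, samples; lines, group means). The E20 means lie above the E19 means for Rpl38 and Rpl31 and below them for Rps13 and Rpl34, in livers and in tumors.

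Several rows of the family and of its pseudogenes were near 0 in some samples and well above it in others, in livers as in tumors. Rps4l, a paralog of Rps4x, had deposited TPM of 12, 10 and 15 in livers 1, 5 and 6 and 9 in tumor 8, and 0 to 2 in the other 14 samples. Its difference between tumors and livers, -0.98 (SE 0.48, adjusted p = 0.167), sets 3 of 6 livers and 1 of 12 tumors above the rest, and without liver 3 it was called (-1.41, adjusted p = 0.0322), where 7.47% of all genes were called lower. Rps4x, its X-linked counterpart, showed no such pattern. The row of the Rpl26 pseudogene Gm15772 had 93 in liver 5 and 88 in tumor 3, and 0 to 3 in the other 16 samples. In the same liver and tumor the row of Rpl26 itself was at its lowest relative to the family, -1.26 and -1.37 on the log2 scale, against -1.10 to -0.37 elsewhere. With both rows added, the values were -0.24 and -0.46, against -1.08 to -0.36 elsewhere. Rps2-ps6 had 23 to 110 in 11 samples and 0 to 5 in the other 7. Rpl34-ps1 had 4 to 105 over the samples and Rpl14-ps1 0 to 167, beside 3 to 120 for Rpl34 and 7 to 170 for Rpl14. A quantifier can divide reads between near-identical copies, so Rpl26, Rps2, Rpl34, Rpl14 and their copies are uncertain one by one. The 20 rows named as pseudogenes of these genes made up 0.459 to 1.41% of the ribosomal protein sum, and adding each to its parent gene left 0 of 77 called between tumors and livers. The tag contrast was not fitted with these rows added.

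**Figure D5:**
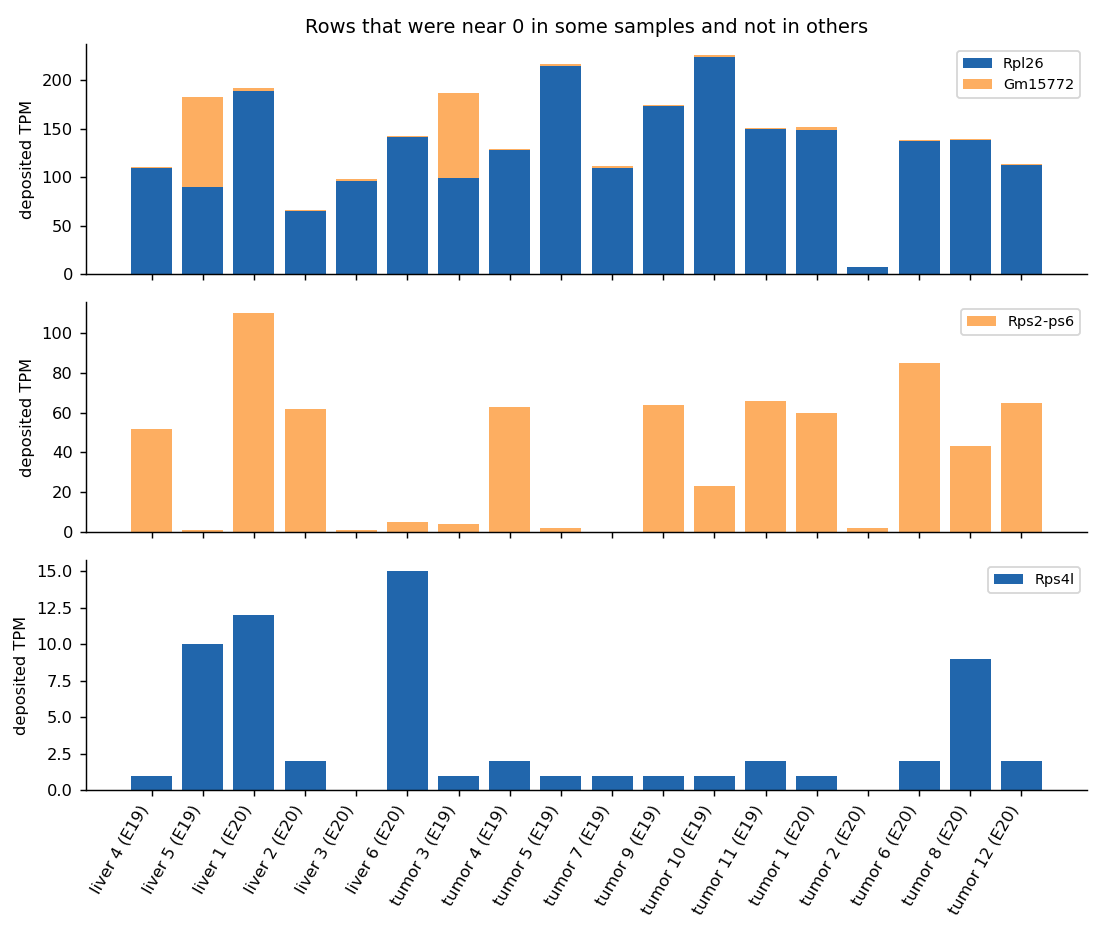
Deposited TPM by sample for Rpl26 with its pseudogene row Gm15772 stacked on it (top), Rps2-ps6 (middle) and Rps4l (bottom), with the name tag in parentheses. Gm15772 stands out in liver 5 and tumor 3 alone, Rps2-ps6 is at 5 or below in 7 samples, and Rps4l exceeds 2 in 4 samples.

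Genes around the ribosome were counted in the same fits, from lists set by their known roles. Between tumors and livers, 0 of 9 ribosomal proteins and partners outside the symbol rule were called, 0 of 78 mitochondrial ribosomal proteins (median -0.11), 0 of 26 translation factors (median 0.05) and 0 of 45 genes of ribosome assembly and rRNA synthesis (median 0.08), against 19.1% of all genes. Rpsa, a small-subunit protein, had medians of 426 in livers and 427 in tumors, and Rps3a1 of 218 and 270.

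Of 17 growth control genes, 1 was higher and 1 lower in tumors, against 9.52% and 9.61% of all genes. Mycn, a Myc family factor, ranged from 0 through 0.898 to 1.94 scaled TPM in livers and from 2.46 through 4.50 to 5.95 in tumors. Its difference was 1.57 (SE 0.20). The row holds only a few whole TPM. The highest liver and the lowest tumor had the same deposited value, and only their scaling factors set them apart. Mxi1, a Myc antagonist, differed by -0.75 (SE 0.21, adjusted p = 0.0137). Of 10 genes of the p53 pathway, 5 were higher and 0 lower, against the same shares, with the largest difference in Phlda3 (1.63, SE 0.44) and then Eda2r (1.42, SE 0.33), and the smallest in Bax (0.76, SE 0.15) and Mdm2 (0.83, SE 0.23). Of 11 noncoding RNAs that host snoRNAs, which often carry a TOP tract themselves, only Snhg8 was called, lower (-0.60, SE 0.17, adjusted p = 0.0187).

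Between the tags, 6.37% of all genes were called lower and 14.1% higher in E20. Of 78 mitochondrial ribosomal proteins 27 were called lower and 0 higher in E20 (median -0.46), of 26 translation factors 7 lower and 0 higher (median -0.47), and of the 9 left-out ribosomal proteins and partners 3 lower, Fau (-0.57), Rps3a1 (-0.53) and Rpl36al (-0.48). The 45 assembly and rRNA synthesis genes had a median of -0.04, with 2 higher and 3 lower. Of the 17 growth control genes 4 were higher and 1 lower, and of the 10 genes of the p53 pathway 2 were higher and 0 lower. The 11 snoRNA hosts had a median of 0.31, with 1 higher and 0 lower.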

How the data were processed

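The authors sequenced poly-A RNA, mapped reads to GRCm38 and quantified genes with Salmon. The deposited values are TPM that the authors rounded to whole numbers, and since no count model suits such a score, limma took the place of a count test. Here 8 lines with an extra separator were repaired. Values were divided by an unweighted trimmed mean of M values factor (30% of M and 5% of A trimmed), and log2(value + 1) was fitted with limma 3.58.1 (trend) in R 4.3.3, for genes at 1 or more in at least 6 samples. The tumor-liver fit had no covariate and the tag fit had group as covariate. A gene was called at an adjusted p of 0.05 over all 11452 genes. The scripts were tested on simulated data. Transcript lengths are medians of APPRIS principal transcripts (GENCODE M21). The members and lists were chosen with earlier results of these data known. Genes named are the 8 highest and 8 lowest tumor-liver differences, the 5 highest and 5 lowest tag differences and mean levels, fixed paralogs and regulators (Rpl3l, Rpl10l, Rpl39l, Rps27l, Rps4l, Rps6, Rplp0, Rpl5, Rpl11, Rpl22, Rpl22l1), and up to 2 called genes at each end of every other list. Rps27a, Rpl6, Rpl7, Rpl17, Spp1, the pseudogene rows, Rpsa, Rps3a1, Fau and Rpl36al were named after their values were seen. Groups came from the sample labels, and equal replicate numbers of livers and tumors did not mark paired samples. By the sample labels, each sample is a tissue piece from a separate mouse, except tumors 11 and 12, and p-values treat those 2 as separate. Alternatives were other scalings, filters and pseudocounts, age or tag as covariate, sample weights, each sample left out, and pseudogene rows added. The depth behind a value is unknown.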

Additional observations from a re-analysis of the deposited data

Results flagged for a closer look

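In 46 groups of 4 to 7 samples tested for a sample far from the others, 4 were marked, where chance gives about 2.3. Each value is the gap to the nearest sample as a share of the group's range. In livers, liver 1 was far above the others for Rps12 (249 scaled TPM against 81.6 to 118, share 0.781), Rpl38 (395 against 179 to 235, share 0.741) and Rpl36a (159 against 47.9 to 88.5, share 0.634). In E20 tumors the family median of tumor 2 was far below the others (6.32 on the log2 scale against 7.30 to 7.62, share 0.753).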

How the results depend on the processing

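The median tumor-liver difference of the ribosomal protein genes, 0.01, ran from -0.29 in E20 samples alone to 0.25 without both liver 1 and tumor 2. Its sign thus changed with the samples used. With 1 sample left out it lay between -0.09 and 0.13. The count of genes called, 0, became 1 with the tag as covariate (Rps2), 4 without both liver 1 and tumor 2 (chosen after seeing the data) and 11 with sample quality weights, and 0 to 1 with a sample left out, where liver 3 gave the 1. The median tag difference of -0.55 lay between -0.65 and -0.39 with a sample left out. The count called in the tag contrast, 38, was 0 with unscaled values, 1 with the total without Siglece as scale, 4 relative to the family and 0 in livers alone. It was 21 with age as covariate and 21 without both tumors of 1 mouse. It was 43 with scaling by the median of gene ratios, 53 with sample quality weights and 49 without both liver 1 and tumor 2. Pseudocounts of 0.5 and 5 gave 38 and 39. With a sample left out it ran from 17 to 49. The lowest came without liver 5, and leaving out liver 2 or tumors 3, 5 or 10 gave 24 each and tumor 9 gave 23. Most alternatives of the tag contrast were chosen after seeing the data. The cause of these changes was not tested. Without scaling, the median of all genes tested moved from -0.08 to -0.18 between tumors and livers. Equal replicate numbers did not mark pairs, since livers and tumors came from different mice. Deviations of equal numbers correlated between -0.106 and 0.425, with a mean of 0.175, against a mean of -0.035 for other pairs. Of 6 livers, 3 lay closest to the tumor of their number, and the reason was not tested. With the replicate block, over livers and tumors 1 to 6, 0 ribosomal protein genes were called, and the median was -0.13. The deposited values are whole numbers, read here as TPM, so a difference of less than 1 TPM cannot be seen in a low row such as Rps4l.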
